A study of Mus musculus with 14 samples.

Results

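The 7 genes described here are Osgin1, Txnrd1, Gclm, Sqstm1, Nfe2l2, Fth1 and Prdx1, a set of genes of the oxidative stress response together with a ferritin subunit. They were chosen by name, with Osgin1 set beside standard targets of the transcription factor Nrf2 and beside ferritin. No threshold on their values was used, but the choice was made with earlier results of these data known. All 7 were listed among the 10210 genes of the natural killer (NK) cell count table and among the 12235 genes of the fibroblast table. All 7 also passed the filter on low counts, which left 8471 NK genes for testing.

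The libraries are bulk 3' end RNA sequencing of sorted cells of female BALB/c mice aged 8 weeks. NK cells came from the spleens of healthy mice (3 libraries) and from the spleens of mice that carried a 4T1-GFP tumour (4 libraries). Tumour NK cells, from 4T1-GFP tumours, gave 4 libraries. The sample titles do not say whether these tumours and spleens came from the same mice. A further 3 libraries came from sCAFs, cancer-associated fibroblasts negative for PDPN, of 4T1-GFP tumours. 4T1 is a mammary tumour line of BALB/c origin that grows and spreads in hosts with an intact immune system. Into the lower left mammary fat pad 100000 such cells, marked with green fluorescent protein, were injected, and the labels name no engineered allele in any host. Tumours were digested with collagenase A and DNase for 20 min at 37 °C, whereas spleens were crushed and put in red cell lysis buffer for 5 min on ice. The series calls the replicates of each group independent; whether a library held cells of 1 mouse or of several is not given in the sources used here. The p-values below measure the spread between these libraries.

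Nrf2, the protein of Nfe2l2, is held in the cytosol by Keap1, which presents it to a ubiquitin ligase for degradation. Oxidants and electrophiles modify Keap1, so that Nrf2 gathers in the nucleus, pairs with a small Maf protein and binds antioxidant response elements near genes for glutathione synthesis, thiol reduction and iron handling. Because this control acts on the protein, the mRNA level of Nfe2l2 is not a measure of Nrf2 activity. Ferritin is a shell of heavy and light chains that stores iron in a form that cannot drive radical chemistry, and its translation is controlled by iron. NK cells meet oxidants and low nutrient supply inside tumours.

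The proximal promoters of the members were read for the core letters of the antioxidant response element, TGACNNNGC, on both strands, because this is the site through which Nrf2 and small Maf proteins act. RefSeq windows on GRCm38.p6, from 250 bases before to 50 bases after each start site, were found for 7 of the 7 members. The letters occurred in the windows of Txnrd1, Gclm, Nfe2l2 and Prdx1. Of all 27025 genes with a window, 14% held them. The stretches below run 5′ to 3′ on the strand of the gene, with the matching letters in capitals.
Txnrd1, chr10:82859098-82859138, plus strand: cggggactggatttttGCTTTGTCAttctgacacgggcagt
Gclm, chr3:122245407-122245447, plus strand: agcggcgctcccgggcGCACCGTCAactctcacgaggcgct
Nfe2l2, chr2:75704879-75704913, minus strand: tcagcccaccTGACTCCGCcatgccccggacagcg
Prdx1, chr4:116685450-116685490, plus strand: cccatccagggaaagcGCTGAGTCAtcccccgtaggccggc
In Txnrd1 the match began 92 bases before the start site of 1 of 3 windows, in an intron of a longer GENCODE M21 transcript. In Gclm, Nfe2l2 and Prdx1 the matches began 134, 240 and 133 bases before the start site and lay upstream of the annotated gene. These matches are letters in a window and not measured binding sites. As described below, they were found in Txnrd1, called higher in tumour NK against both spleen groups. Nfe2l2, called higher against tumour-bearing spleens only, held them too, as did Gclm and Prdx1, which were not called.

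The windows of Osgin1, Sqstm1 and Fth1 did not hold TGACNNNGC, which says nothing of sites elsewhere. After the Osgin1 window had been read, the letters TGANTCA were looked for as well. They are a loose form of the element of AP-1 factors such as Fos and Jun. They occurred in Osgin1 and Prdx1, and in 8.97% of all genes with a window, a share that counts any letter at N. The Osgin1 stretch is shown because this member changed most.
Osgin1, chr8:119437034-119437072, plus strand: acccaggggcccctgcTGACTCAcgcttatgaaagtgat
It began 97 bases before the start site and lay in an intron of a longer GENCODE M21 transcript of Osgin1. In Prdx1 TGANTCA occurred 237 and 131 bases before the start site, and the nearer match overlapped the TGACNNNGC match printed above.

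The NK libraries held 559688 to 1966963 counts each and the sCAF libraries 1318067 to 2230475. Levels are given as CPM, counts scaled to a common library size after TMM normalisation unless raw totals are named. On that scale 3 counts, the upper limit for a gene with a count of 0, correspond to 1.54 to 4.62 CPM in an NK library. Of 12 NK cell markers 11 were listed, and their summed level (CPM on raw library totals) was 20200 to 23362 in tumour NK libraries and 27905 to 30982 in spleen libraries. Immediate early genes, which respond within minutes to stimuli and to tissue handling, summed to 8510 to 11534 CPM in tumour NK, 1788 to 2987 in tumour-bearing spleens and 1546 to 2110 in healthy spleens. All 20 were tested, at the threshold given below. In tumour NK 18 were higher and 1 lower against tumour-bearing spleens, and 18 higher and 0 lower against healthy spleens. Shares of all genes that were higher in these contrasts were 15.8% and 16.5%. Between the spleen groups 4 of the 20 were higher in tumour-bearing mice, as were 1.23% of all genes. Of markers of macrophages and monocytes 10 of 17 were listed, with sums of 1633 to 1937 CPM in tumour NK, 872 to 1536 in tumour-bearing spleens and 1257 to 1839 in healthy spleens. The defining gene Csf1r was at 0 in all 7 spleen libraries and at 2.17 ± 3.43 CPM (SD, n = 4) in tumour NK. Neutrophil markers (4 of 12 listed) summed to 55.7 to 153 CPM in tumour NK and to at most 11.9 in spleens. Carcinoma markers (2 of 11 listed) summed to 25 to 51.0 CPM in tumour NK and to at most 3.57 in spleens. Fibroblast markers (4 of 13 listed) summed to 1370 to 2020 CPM in tumour NK, 914 to 1101 in tumour-bearing spleens and 457 to 684 in healthy spleens. Of 8 endothelial markers only Pecam1 was listed, at 131 to 185 CPM in tumour NK and 48.2 to 93.0 in spleens. Both the fibroblast sum and Pecam1 were thus well above 0 in every spleen NK library, and they do not measure fibroblasts or endothelial cells. Markers of dendritic cells (2 of 9 listed) and T cells (3 of 9) summed to 173 to 224 and 59.2 to 98.1 CPM in tumour NK, and to at most 319.8 and 144 in spleens. The part of these cells and of the digestion in the results below was not tested, and tumour and digestion cannot be told apart in this design.

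In tumour NK cells 5 of the 7 genes were higher than in NK cells from spleens of tumour-bearing mice. Osgin1 rose from near 0 to 248 ± 51.8 CPM (SD, n = 4), Sqstm1 rose 3.94-fold, Txnrd1 2.17-fold, Fth1 1.63-fold and Nfe2l2 1.52-fold. Gclm and Prdx1 were not called in any comparison. The share of genes called higher among all genes tested in this contrast was 15.8% (edgeR's quasi-likelihood test at a Benjamini-Hochberg adjusted p under 0.05), and 29% were called in either direction, 13.2% lower. Against healthy spleens 4 of the 7 were called higher, where 16.5% of all genes were called higher, 14% lower and 30.5% in either direction. Between the spleen groups 0 of the 7 were called, where 1.58% of all genes were called in either direction, 1.23% higher and 0.354% lower. Counted by groups that did not overlap, 4 of the 7 lay higher in tumour NK than in tumour-bearing spleens, as did 16.5% of all genes (13.3% lower, 29.7% either way). Against healthy spleens 4 lay higher and Gclm lower, where 18.5% of all genes lay higher and 16.3% lower, 34.8% in all. Between the spleen groups Gclm lay lower in tumour-bearing mice, where 5.71% of all genes lay lower and 6.52% higher, 12.2% in all. The members were chosen with earlier results of these data known, so their counts beside the shares of all genes are descriptions. The tumour contrasts share the tumour libraries and are not independent of each other. In bulk libraries, a change in how many cells express a gene and a change in RNA per cell cannot be told apart.

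**Figure D1:**
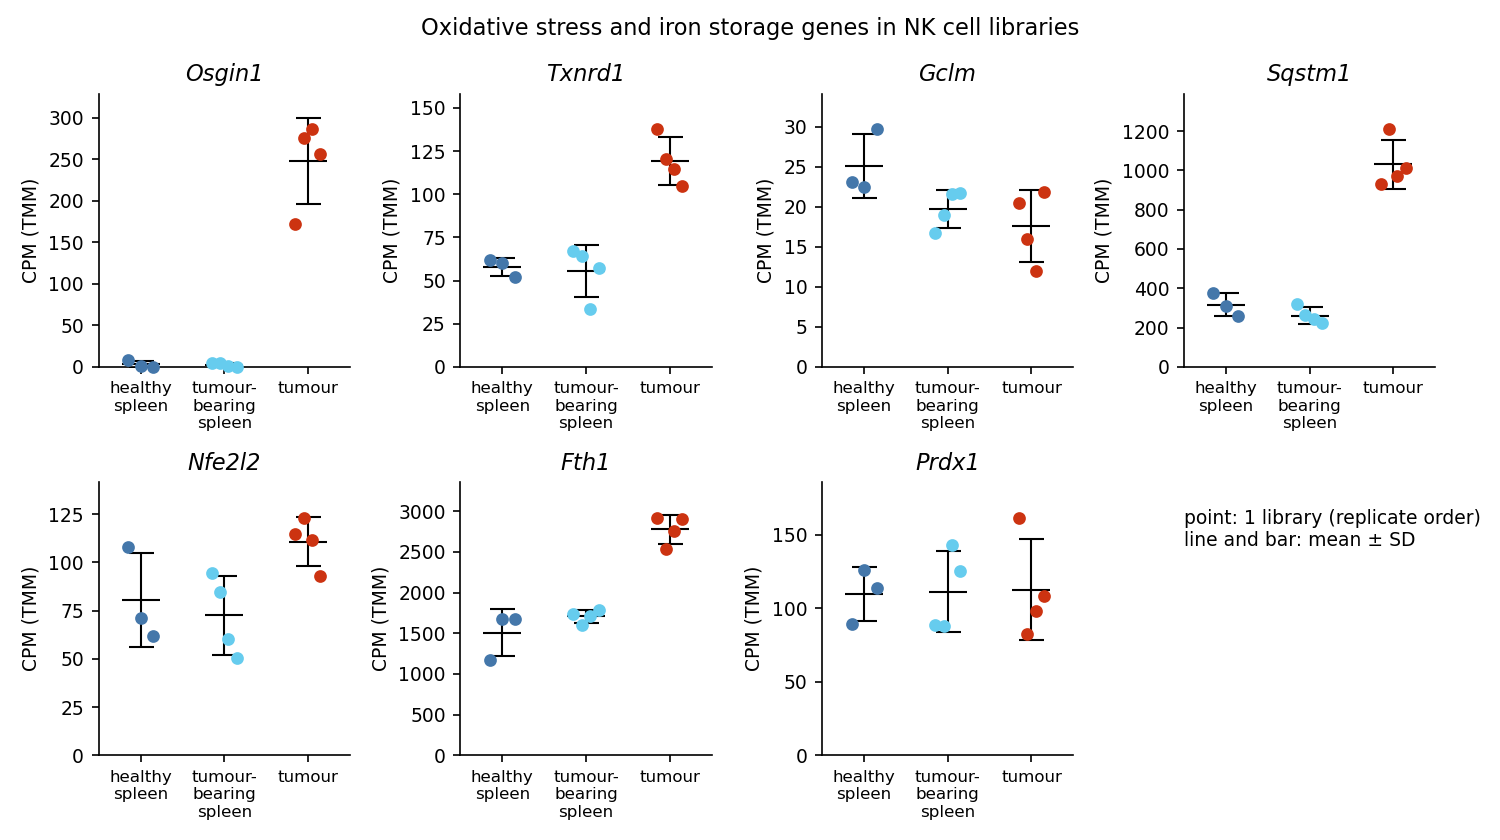
Level of each of the 7 genes in every NK library, in CPM on TMM-scaled library sizes (vertical axis, starting at 0), for healthy spleens (n = 3), tumour-bearing spleens (n = 4) and tumours (n = 4). Points are libraries, and lines with bars are means ± SD. Tumour points lie above all spleen points for Osgin1, Txnrd1, Sqstm1 and Fth1, while groups overlap for Nfe2l2 and Prdx1.

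Osgin1 encodes a protein induced by oxidative stress that restrains cell growth. Its counts were 210, 190, 476 and 270 in tumour NK replicates 1 to 4, or 172, 275, 286 and 257 CPM. In tumour-bearing spleens the counts were 6, 8, 3 and 0, and in healthy spleens 5, 2 and 0. Every tumour library stood far above every spleen library, and the spleen values lay at or near the limit that a count of 0 allows. The mean was 248 ± 51.8 CPM in tumours, 2.65 ± 2.25 (n = 4) in tumour-bearing spleens and 2.92 ± 4.17 (n = 3) in healthy spleens. The fitted log2 fold change was 6.50 (SE 0.461, adjusted p 8.41e-07, edgeR's quasi-likelihood test) against tumour-bearing spleens. It was 6.94 (SE 0.584, adjusted p 3.90e-06) against healthy spleens. Among all 8471 genes these rises ranked 6th and 13th from the top.

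The size of the Osgin1 rise is imprecise because the spleen sums were 17 and 7 counts. The ratio of summed counts, scaled to library size, was 93.7 (95% interval 58.3 to 161) against tumour-bearing spleens and 132 (63.9 to 329) against healthy spleens, where the intervals cover counting error only. Against healthy spleens the log2 fold change was 8.38 without healthy replicate 1 and 5.00 against healthy replicate 1 alone, and its call held in both. Between the spleen groups it was 0.44 with an interval of −1.82 to 2.71, so that a change of several fold in either direction was not detectable at this depth.

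Sqstm1 encodes p62, a receptor that carries ubiquitinated cargo into autophagosomes and also binds Keap1, and it is itself an Nrf2 target. Its level was 930, 1210, 972 and 1014 CPM in the 4 tumour NK libraries. The tumour-bearing spleens had 318, 265, 241 and 222 CPM, and the healthy spleens 378, 311 and 259. All tumour libraries lay above all spleen libraries, and the ranges of the spleen groups overlapped. The log2 fold change was 1.98 (SE 0.156, adjusted p 1.17e-08, edgeR's quasi-likelihood test) against tumour-bearing and 1.71 (SE 0.172, adjusted p 3.09e-07) against healthy spleens. Between the spleen groups it was −0.27 (interval −0.61 to 0.08, adjusted p 0.609). Mrnip lies on the opposite strand and shares 750 bases with Sqstm1; whether counting used strand is not given in the sources used here. Mrnip itself had log2 fold changes of −1.08 and −1.49 in the tumour contrasts, opposite in sign to Sqstm1.

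Txnrd1 encodes cytosolic thioredoxin reductase, which returns oxidised thioredoxin to its reduced form with NADPH. It was at 138, 120, 115 and 105 CPM in tumour NK. Tumour-bearing spleens had 67.1, 64.2, 33.5 and 57.1 CPM, and healthy spleens 61.6, 60.5 and 52.0. The tumour libraries again lay above every spleen library, with tumour-bearing spleen replicate 3 the lowest of all 11. The log2 fold change was 1.12 (SE 0.182, adjusted p 0.000106, edgeR's quasi-likelihood test) against tumour-bearing and 1.04 (SE 0.204, adjusted p 0.000644) against healthy spleens. Against healthy replicate 1 alone the call was lost (0.96, adjusted p 0.0662). Between the spleen groups the difference was −0.07 with an interval of −0.50 to 0.36.

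Fth1 encodes the ferritin heavy chain, which oxidises ferrous iron as it enters the shell. Its level was 2919, 2532, 2754 and 2903 CPM in tumour NK. Tumour-bearing spleens had 1731, 1604, 1706 and 1787 CPM, and healthy spleens 1174, 1674 and 1679. The tumour range did not overlap the spleens, and healthy replicate 1, the library with the fewest counts, was the lowest. The log2 fold change was 0.70 (SE 0.145, adjusted p 0.00112, edgeR's quasi-likelihood test) against tumour-bearing and 0.88 (SE 0.160, adjusted p 0.000316) against healthy spleens. Between the spleen groups it was 0.18 (interval −0.15 to 0.50). The annotation holds 2 pseudogene copies named after Fth1, neither listed in the NK table. Copies under other names were not counted. Its level is therefore uncertain if the counting split or dropped shared reads.

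Nfe2l2, the gene of Nrf2, differed least among the called members. Its level was 115, 123, 112 and 93.2 CPM in tumour NK. Tumour-bearing spleens had 94.5, 84.8, 60.2 and 50.6 CPM, and healthy spleens 108, 71.2 and 61.9. The groups overlapped, since tumour replicate 4 lay below tumour-bearing spleen replicate 1 and healthy replicate 1. The log2 fold change was 0.61 against tumour-bearing spleens (SE 0.196, adjusted p 0.0254, edgeR's quasi-likelihood test) and 0.50 against healthy spleens (interval 0.04 to 0.96, adjusted p 0.0915), which did not pass. Against tumour-bearing spleens the call was lost without spleen replicate 3 or 4 (adjusted p 0.0909 and 0.0871) and without tumour replicate 1, 2 or 3 (0.0643, 0.0682 and 0.0653). It was also lost with upper-quartile scaling (0.51, adjusted p 0.0629) and against spleen replicates 1 and 2 alone (0.30, adjusted p 0.339). Against healthy spleens Nfe2l2 was called without healthy replicate 1 (0.70, adjusted p 0.0143) and with the replicate number as a block (0.63, adjusted p 0.0115).

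Gclm encodes the modifier subunit of glutamate-cysteine ligase, the enzyme of the first step of glutathione synthesis. It was at 20.5, 15.9, 12 and 21.9 CPM in tumour NK, the lowest group mean. Tumour-bearing spleens had 16.8, 19.0, 21.6 and 21.7 CPM, and healthy spleens 23.1, 22.5 and 29.7. All healthy libraries lay above all others and the other groups overlapped. The log2 fold change was −0.19 (interval −0.69 to 0.31) against tumour-bearing spleens and −0.53 (interval −1.07 to 0.009, edgeR's quasi-likelihood test, adjusted p 0.128) against healthy spleens. The values rest on 79, 128 and 93 counts summed over the tumour, tumour-bearing and healthy libraries. Both intervals exclude a rise as large as that of Txnrd1.

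Prdx1 encodes a peroxiredoxin that reduces peroxides with thioredoxin as donor, downstream of Txnrd1. It was at 161, 82.6, 98.0 and 108 CPM in tumour NK. Tumour-bearing spleens had 88.4, 88.2, 143 and 125 CPM, and healthy spleens 89.4, 126 and 114. The groups overlapped throughout, and the highest and the lowest of all 11 libraries were both tumour libraries. The log2 fold changes were 0.03 (interval −0.41 to 0.46) against tumour-bearing and 0.03 (interval −0.45 to 0.50) against healthy spleens, and 0.00 between the spleen groups. A change of 1.37-fold or less upwards against tumour-bearing spleens lies within the interval. Prdx1 has 1 pseudogene copy named after it in the annotation, which was not listed in the NK table. Copies under other names were not counted.

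**Figure D2:**
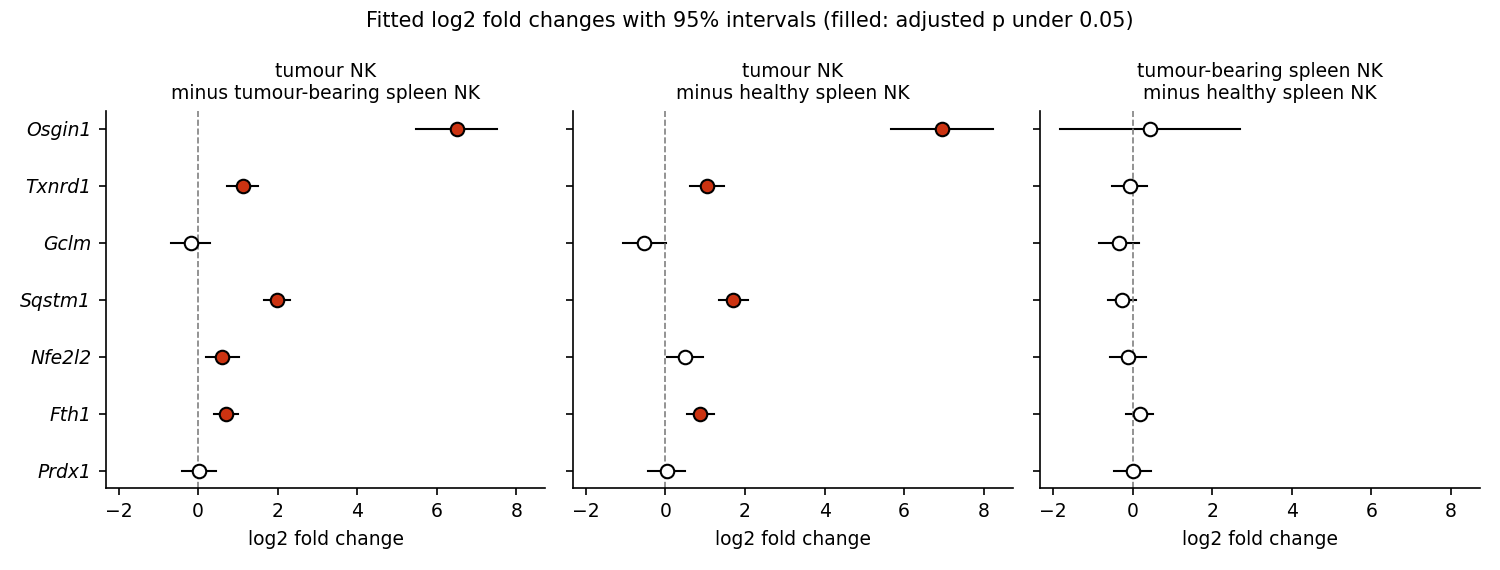
Fitted log2 fold changes (horizontal axis) of the 7 genes with 95% intervals in the 3 NK comparisons; filled points passed an adjusted p of 0.05 in edgeR's quasi-likelihood test. Osgin1 lies at 6.50 and 6.94 in the tumour comparisons, and no gene is filled in the comparison of the spleens.

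Between tumour-bearing and healthy spleens no member had an unadjusted p under 0.05, and the smallest was 0.122, for Sqstm1. Over all genes 951 had such a p, and DESeq2 called 0 of the 7 as well. Earlier results of these data had shown the spleen libraries to split across their groups, with tumour-bearing replicates 1 and 2 and healthy replicate 1 on one side. Osgin1 was at 4.47 to 7.70 CPM on that side and at 0 to 1.54 on the other, from 5 to 8 counts against 0 to 3. Nfe2l2 was at 84.8 to 108 against 50.6 to 71.2 CPM, and Txnrd1 at 61.6 to 67.1 against 33.5 to 60.5. Prdx1 went the other way, at 88.2 to 89.4 against 114 to 143 CPM. For Gclm, Sqstm1 and Fth1 the sides overlapped. The sides were found in these same data, so these separations are descriptions, and the share of all genes that separated was not counted. The split touches the size of the Osgin1 rise: it was 5.74 on the log2 scale against tumour-bearing spleen replicates 1 and 2 alone and 7.93 against replicates 3 and 4 alone, and its call held in both. With the split as a block, 0 members were called between the spleen groups.

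The members varied to different degrees over the 11 NK libraries. The SD of log2 CPM was 3.21 for Osgin1, 0.967 for Sqstm1, 0.609 for Txnrd1, 0.430 for Fth1, 0.424 for Nfe2l2, 0.315 for Gclm and 0.314 for Prdx1. Each gene was then centred on its own mean and genes were compared by the root mean square difference of log2 CPM, where 0 means the same profile. Within the set Gclm and Prdx1 were closest (0.327), followed by Txnrd1 with Fth1 and with Nfe2l2 (both 0.359). Osgin1 lay from 2.16 (with Sqstm1) to 3.25 (with Gclm) from the other members. The profiles were not scaled to equal spread. The distances of Osgin1 therefore follow from its SD of 3.21 and do not compare the shapes of the profiles.

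By the same measure the genes nearest to Osgin1 in the NK table were Ifitm1 (0.584), Upp1 (0.690) and Gzmc (0.706). Ifitm1, an interferon-induced membrane protein, was at 179 ± 74.9 CPM in tumour NK against 2.93 ± 2.05 in tumour-bearing spleens. Upp1, uridine phosphorylase, was at 113 ± 30.6 and 3.22 ± 2.74 CPM. Gzmc, granzyme C, was at 765 ± 168 and 14.6 ± 11.2 CPM. Each was far lower in every spleen group than in tumours, like Osgin1. Nearest to Sqstm1 were Elmsan1 (0.178), Wsb1 (0.183) and Arf4 (0.195), and nearest to Txnrd1 were Dennd3 (0.189), Cd163l1 and Armcx2 (both 0.196). Fth1 was nearest to Emd (0.0855), Rpl3 (0.107) and Acbd6 (0.120). The nearest genes of Nfe2l2 were Rbm39 (0.117), Eomes (0.123) and Septin2 (0.124). Gclm was nearest to Casc3, Cdkn2d and Baz1b (0.145 to 0.149), and Prdx1 to Gstk1, Pdlim1 and Tcof1 (0.140 to 0.159). Genes that vary little, such as Gclm and Prdx1, lie close to many others by this measure.

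The small Maf partners of Nrf2 rose in tumour NK against each spleen group. Of 13 tested genes that regulate Nrf2, 3 were higher and 0 lower in tumour NK against tumour-bearing spleens, and 4 higher and 2 lower against healthy spleens. The shares of all genes were 15.8% higher and 13.2% lower in the first contrast, and 16.5% and 14% in the second. Maff was at 178 ± 53.5 CPM in tumour NK, 2.74 ± 1.76 in tumour-bearing and 0.357 ± 0.618 in healthy spleens. It rose by 6.01 on the log2 scale against tumour-bearing spleens (adjusted p 3.39e-09, edgeR's quasi-likelihood test), close to Osgin1, and its healthy level is below the limit that a count of 0 allows. Mafg rose by 2.21 and 1.71 and Mafk by 1.85 and 1.86 in the tumour contrasts. Nfe2l1, a relative of Nrf2, rose by 0.70 against healthy spleens, a call lost without healthy replicate 3. Rbx1, a subunit of the ligase that Keap1 recruits, fell by 0.82 against healthy spleens, and Trim21, a ubiquitin ligase that binds p62, fell by 1.02.

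Keap1 was at 79.7 ± 10.5 CPM in tumour NK against 103 ± 6.24 in tumour-bearing spleens (−0.36, adjusted p 0.0531, edgeR's quasi-likelihood test), just outside the threshold. Bach1, the repressor that competes with Nrf2 at its sites, was at 16.1 ± 7.05 and 9.27 ± 6.29 CPM (adjusted p 0.309). Without tumour-bearing spleen replicate 1, healthy replicate 1 or tumour replicate 3, 2 regulators were lower against tumour-bearing spleens, Keap1 among them, and 1 without tumour-bearing spleen replicate 2. Trim21 lost its call without healthy replicate 1 or 2 and without tumour replicate 1 or 3. Without healthy replicate 1 or 2 or tumour replicate 1 the lower regulators against healthy spleens numbered 1.

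Known Nrf2 targets went in both directions, as did the genes of the whole NK table. Of 40 listed targets 25 were tested; 8 were higher and 5 lower against tumour-bearing spleens, with a median log2 fold change of 0.03, where the median of all genes was 0.001. Against healthy spleens 7 were higher and 3 lower, with a median of 0.06 against 0.02 for all genes. Leaving out the members on the list, 19 targets were tested, of which 4 were higher and 5 lower, and 3 higher and 3 lower, in these contrasts. All tested genes had shares of 15.8% higher and 13.2% lower in the first contrast, and 16.5% and 14% in the second. Whether the targets differ from these shares was not tested. The list was written with earlier results of these data known.

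Among the other targets, Slc3a2, the heavy chain of the cystine and amino acid exchangers, rose from 155 ± 10.7 to 556 ± 39.0 CPM (log2 fold change 1.84, and 2.23 against healthy spleens). Txn1, thioredoxin, rose by 0.92 against healthy spleens and by 0.41 against tumour-bearing spleens, where the call was lost without spleen replicate 2, 3 or 4 or tumour replicate 1 or 4. Gclc, the catalytic partner of Gclm, rose by 0.63 against tumour-bearing spleens, a call lost without spleen replicate 3 or 4 or tumour replicate 2. It was not called against healthy spleens (0.41, adjusted p 0.142). Srxn1, which repairs overoxidised peroxiredoxins, was at 23.7 ± 3.24 CPM in tumour NK against 14.3 ± 3.84 in healthy spleens and missed the threshold (0.72, adjusted p 0.0535).

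The targets that fell included conjugating and hydrolysing enzymes of detoxification. Gstm1, a glutathione S-transferase, fell from 91.1 ± 17.5 CPM in tumour-bearing spleens to 35.9 ± 2.14 in tumour NK (−1.34, and −1.86 against healthy spleens). Ephx1, an epoxide hydrolase, changed by −2.22 and −1.10, and was 1.12 higher in tumour-bearing than in healthy spleens, a call lost without tumour-bearing spleen replicate 3 or healthy replicate 2. Gstp1 changed by −0.80 and −0.84, and both calls were lost without tumour replicate 2 or 4; the first was also lost without spleen replicate 4 and the second without healthy replicate 2 or 3. Blvra, biliverdin reductase, changed by −0.69 against tumour-bearing spleens. Taldo1, a pentose phosphate enzyme named after its value was seen, changed by −0.45. Hmox1, haem oxygenase, did not pass the filter on low counts and was at 4.19 ± 3.12 CPM in tumour NK. Without tumour-bearing spleen replicate 3 the higher targets against tumour-bearing spleens numbered 5, and without spleen replicate 4 or tumour replicate 2 or 4 the lower targets numbered 3.

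**Figure D3:**
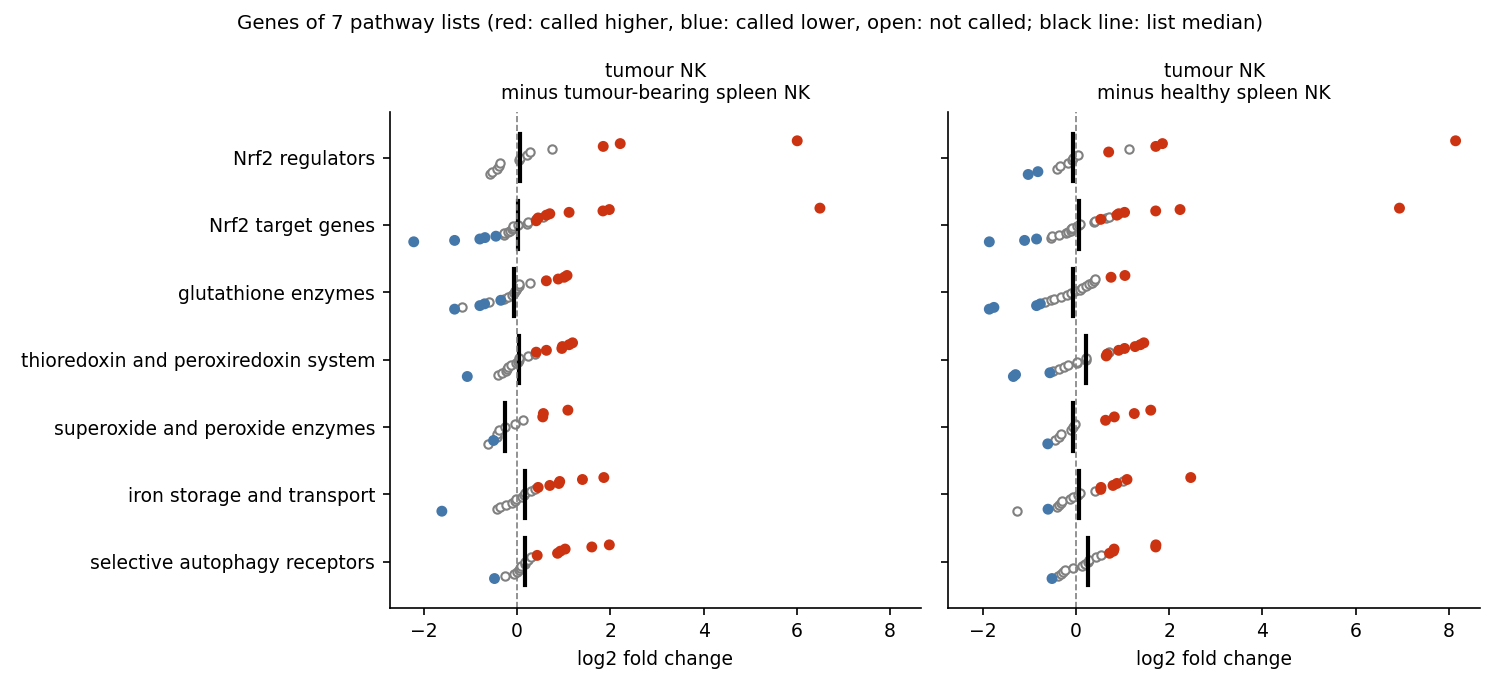
Log2 fold changes (horizontal axis) of the tested genes of 7 pathway lists in tumour NK against each spleen group; red and blue points were called higher and lower in edgeR's quasi-likelihood test, open points were not called, and black lines are list medians. The list medians lie between −0.26 and 0.26, and the 2 points farthest to the right are Maff and Osgin1.

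Beside Fth1, the transferrin receptor and the endosomal iron transporter rose in tumour NK. Of 18 tested genes of iron storage and transport 6 were higher and 1 lower against each spleen group, with medians of 0.16 and 0.07. For all genes the shares were 15.8% higher and 13.2% lower against tumour-bearing spleens, and 16.5% and 14% against healthy spleens. Tfrc, the transferrin receptor, rose from 16.5 ± 3.30 CPM in tumour-bearing spleens to 59.5 ± 13.3 in tumour NK (log2 fold change 1.86, and 2.46 against healthy spleens). Slc11a2, the transporter that takes iron out of endosomes, rose by 0.90 and 1.10. Pcbp2, an iron chaperone of ferritin, rose by 0.91 and 0.80, the second lost without healthy replicate 3. Pcbp1, another chaperone, which is named after its value was seen, rose by 0.54 against healthy spleens. Flvcr1, a haem exporter, rose by 1.40 against tumour-bearing spleens, a call lost without spleen replicate 1 or 4.

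Ftl1, the light chain of ferritin, was at 1589 ± 137 CPM in tumour NK against 1162 ± 210 in tumour-bearing spleens. Its log2 fold changes of 0.45 (adjusted p 0.0465) and 0.53 (adjusted p 0.0319, edgeR's quasi-likelihood test) were less stable than those of Fth1. The first was lost without spleen replicate 1, 2 or 3, healthy replicate 2 or any tumour replicate, and the second without healthy replicate 1 or 2 or tumour replicate 3 or 4. Ftl1 has 3 annotated copies, found by name only, that were not listed in the NK table. The lower gene was Steap3, an endosomal ferrireductase, at −1.61 against tumour-bearing spleens. Against healthy spleens it was Cyb561a3, a reductase of endolysosomes, at −0.60, lost without healthy replicate 2 or 3 or tumour replicate 2 or 3. The lower genes numbered 2 without tumour-bearing spleen replicate 1 or healthy replicate 1 in each contrast, and without spleen replicate 2 in the first. Ncoa4, the receptor that delivers ferritin for breakdown, did not pass the filter on low counts and was at 5.12 ± 1.65 CPM in tumour NK against 6.31 ± 1.08 in tumour-bearing spleens.

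In the thioredoxin and peroxiredoxin system, to which Txnrd1 and Prdx1 belong, 6 of 19 tested genes were higher and 1 lower against tumour-bearing spleens, and 7 higher and 3 lower against healthy spleens. Among all genes 15.8% were higher and 13.2% lower in the first contrast, and 16.5% and 14% in the second. Prdx6, a peroxiredoxin that also acts on lipid peroxides, rose by 1.19 and 1.46, from 80.3 ± 11.8 to 185 ± 29.3 CPM against tumour-bearing spleens. Its relative Prdx1 had fold changes of 0.03 in the same contrasts. Txnip, which binds and inhibits thioredoxin, changed by −1.07 and −1.30, from 482 ± 127 CPM in tumour-bearing spleens to 230 ± 50.9 in tumour NK. Sesn3, a sestrin, rose by 0.96 and 1.38. The other lower genes against healthy spleens were Msrb2, a methionine sulfoxide reductase, at −1.34 and Sesn1 at −0.56, the latter lost without healthy replicate 2. Without spleen replicate 2 the higher genes against tumour-bearing spleens numbered 3.

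Of 20 tested glutathione enzymes 4 were higher and 4 lower against tumour-bearing spleens, and 2 higher and 4 lower against healthy spleens. These counts stand beside 15.8% higher and 13.2% lower of all genes in the first contrast, and 16.5% and 14% in the second. Glrx, glutaredoxin, rose by 1.01 and 1.05, from 66.3 ± 3.94 CPM in tumour-bearing spleens to 134 ± 11. Gsto1, an omega-class transferase, rose by 0.88 and 0.75, the second lost without healthy replicate 1 or 3 or tumour replicate 2, and Oplah, which recycles glutamate from oxoproline, rose by 1.07 against tumour-bearing spleens. Beside Gstm1 and Gstp1 the lower genes were Gpx8 (−0.70) and Glo1 (−0.35) against tumour-bearing spleens. Gpx8 lost its call without spleen replicate 2 or 3 or tumour replicate 1, 3 or 4, and Glo1 without any of 8 libraries. Against healthy spleens they were Glrx2 (−1.76) and Gss, glutathione synthetase (−0.76, lost without healthy replicate 2 or tumour replicate 2). The lower genes against tumour-bearing spleens numbered 2 without spleen replicate 2, 3 or 4 or tumour replicate 1 or 2, and 1 without tumour replicate 4. Gpx1 and Gpx4, the main selenium peroxidases, were not called: Gpx1 was at 311 ± 26.7 CPM in tumour NK against 302 ± 37.8 in tumour-bearing spleens, and Gpx4 at 220 ± 54.2 and 221 ± 89.8.

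Among 11 tested genes that make or remove superoxide and peroxide, 3 were higher and 1 lower against tumour-bearing spleens and 4 higher and 1 lower against healthy spleens. Over all genes the shares were 15.8% higher and 13.2% lower in the first contrast, and 16.5% and 14% in the second. Sod1, cytosolic superoxide dismutase, rose by 0.56 and 0.64, to 665 ± 49.6 CPM. Ncf1 and Ncf4, subunits of the phagocyte NADPH oxidase, rose by 1.09 and 0.55 against tumour-bearing spleens and by 1.61 and 0.82 against healthy spleens. The lower genes were Cyba (−0.50), the oxidase's membrane subunit, lost without spleen replicate 3 or 4 or tumour replicate 1 or 2, and Ucp2 (−0.60) against healthy spleens, lost without healthy replicate 2 or 3 or tumour replicate 1 or 2. Without healthy replicate 1 the lower genes numbered 3 against tumour-bearing and 2 against healthy spleens, and without spleen replicate 1 they numbered 2 against tumour-bearing spleens. Cat, catalase, was at 22.2 ± 7.41 CPM in tumour NK against 29.9 ± 7.18 in tumour-bearing spleens (adjusted p 0.271, not called).

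Sqstm1 rose together with other genes of selective autophagy. Of 17 tested genes 6 were higher and 1 lower against tumour-bearing spleens (median 0.17) and 5 higher and 1 lower against healthy spleens (median 0.26). All genes together had 15.8% higher and 13.2% lower in the first contrast, and 16.5% and 14% in the second. Gabarapl1, an Atg8-family protein that p62 binds on the forming autophagosome, rose by 1.60 and 1.72, from 41.8 ± 7.10 to 129 ± 11.3 CPM against tumour-bearing spleens. Ulk1, the kinase that starts autophagy, rose by 1.03 and 0.80. Tax1bp1, another cargo receptor, rose by 0.93 and 0.82, the second lost without healthy replicate 2 or 3. Map1lc3a, named after its value was seen, rose by 0.87 and 0.72. The lower genes were Atg16l1 (−0.48) against tumour-bearing spleens and Tfeb (−0.51), a transcription factor of lysosomal genes, against healthy spleens. Tfeb lost its call without healthy replicate 3 or tumour replicate 1, 2 or 4, and without tumour-bearing spleen replicate 1 the lower genes against healthy spleens numbered 2.

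The sCAF libraries carry the members at levels of their own. They come from a separate table with no group to compare with, so the values are given on CPM of raw library totals, without a test. All 13 fibroblast markers were listed in the sCAF table and summed to 2800 to 3224 CPM, with Col1a2 at 321 ± 125 CPM (SD, n = 3). Immediate early genes summed to 22555 to 24087 CPM in sCAFs, against 8510 to 11534 in tumour NK. Carcinoma markers summed to 3435 to 4488 CPM, with Krt18 at 2515 ± 415 and Epcam at 19.3 ± 11.7, although the sort removed EPCAM-positive and GFP-positive cells; their part in the levels below was not tested.

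**Figure D4:**
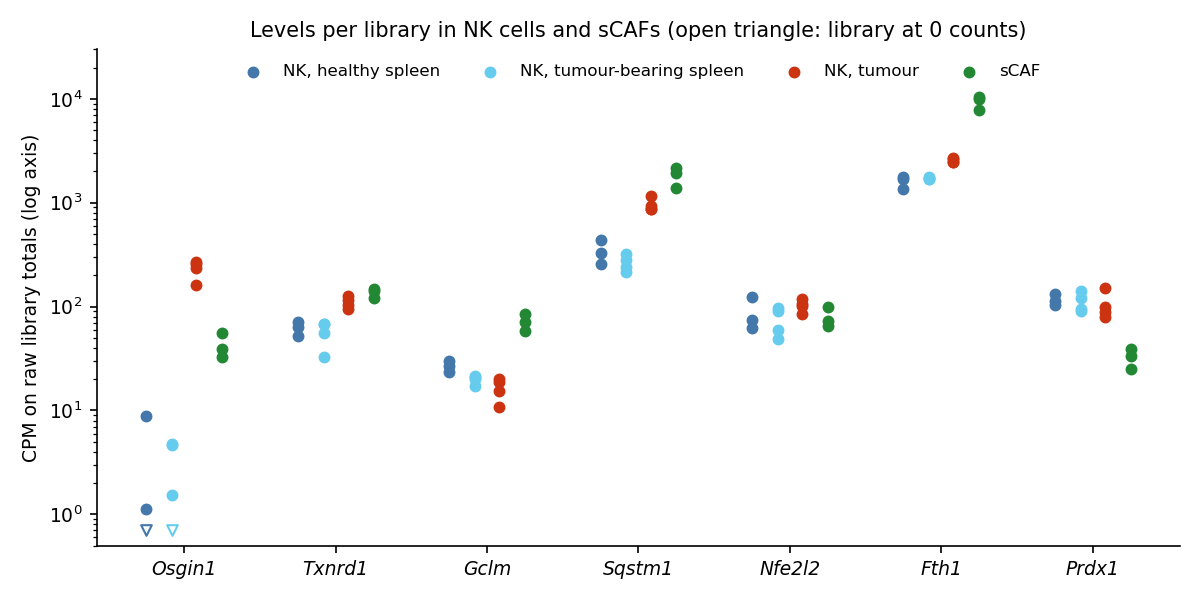
Level of the 7 genes in each library of the 3 NK groups and of the sCAFs, in CPM on raw library totals (vertical log axis); open triangles stand for libraries with 0 counts. Osgin1 and Prdx1 lie lower in sCAFs than in tumour NK, and Gclm, Sqstm1 and Fth1 lie higher.

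Osgin1 was at 55.6, 39.5 and 33.0 CPM in the sCAF libraries, from 124, 52 and 44 counts. Tumour NK had 160 to 267 CPM and spleen NK 0 to 8.93 CPM on the same scale, so that the order was tumour NK, sCAF, spleen NK, with no overlap between these steps. The mean of tumour NK was 5.39 times that of sCAFs. The spleen groups did not differ beyond their spread.

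Gclm was at 58.3, 84.2 and 71.3 CPM in sCAFs, 4.36 times the mean of tumour NK. It lay above all NK libraries, which ran from 10.9 to 29.7 CPM. Among the NK groups the healthy spleens (23.7 to 29.7) were above the tumour-bearing spleens (17.1 to 21.4), which overlapped with tumour NK. Fth1 was at 10051, 10421 and 7880 CPM in sCAFs, 3.67 times the mean of tumour NK, and tumour NK (2452 to 2708) lay above the spleens (1361 to 1764). Sqstm1 was at 1953, 1394 and 2176 CPM in sCAFs, 1.92 times the mean of tumour NK, where it ran from 862 to 1172. The spleen groups overlapped for both genes.

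Prdx1 had the reverse order. It was at 39.5, 25 and 33.8 CPM in sCAFs and at 80.0 to 150 in tumour NK, whose mean was 3.19 times higher, and the 3 NK groups overlapped. Txnrd1 was at 142, 120 and 148 CPM in sCAFs and at 95.8 to 128 in tumour NK, with overlap, and both lay above the spleens (33.0 to 71.5). Nfe2l2 was at 65.5, 72.8 and 98.4 CPM in sCAFs, within the range of the NK libraries (48.9 to 125), and no neighbours in its order were separated beyond their spread. Hmox1 was at 99.7 ± 62.5 CPM in sCAFs. Nqo1 and Slc7a11, textbook Nrf2 targets that the NK table does not list, were at 3.46 ± 0.410 and 2.35 ± 1.64 CPM in sCAFs, close to the 3-count limit.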

How the data were processed

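Raw counts per gene symbol in 2 deposited tables, for 11 NK and 3 sCAF libraries, were used as the authors deposited them; per the submitters' processing notes bcl2fastq, STAR 2.4.2a, HTSeq and mm10 were used. The annotation, the use of strand and of molecular identifiers are not given in the sources used here. In each header a run of spaces stood for a tab between a pair of names, which were split by position (tumour replicates 3 and 4 in the NK table); 0 columns were left unmapped. Groups were taken from the labels. Replicates differed by more than sampling noise (chi-square per degree of freedom 1.95 to 11.3).

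Genes were kept by filterByExpr, libraries scaled by TMM (factors 0.910 to 1.17), and all 11 NK libraries entered 1 robust quasi-likelihood fit by group in edgeR 4.0.16 (R 4.3.3), with Benjamini-Hochberg adjustment over all 8471 genes in each of 3 contrasts. A gene was called at an adjusted p under 0.05. Intervals are at 95%, and intervals from counts and the limit of 3 counts cover counting error only. The fit was tested on simulated data, drawn as independent libraries without the spleen split, so that test does not cover the split. Alternatives were DESeq2 1.42.0, limma-voom (limma 3.58.1), other scalings and filters, the replicate number as a block, each library left out, and the spleen split. sCAF levels are CPM on raw totals. Gene positions are from GENCODE M21 (GRCm38) and promoter windows from RefSeq (GRCm38.p6).

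The members and the lists were chosen with earlier results of these data known. Named are all members, in each list and contrast up to 4 called genes with the largest rise and 4 with the largest fall, some landmark genes such as Keap1 and Hmox1, and the 3 genes nearest to each member by root mean square difference of centred log2 CPM (prior count 2). The values of 1 listed gene are not reported here.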

Additional observations from a re-analysis of the deposited data

How the results depend on the processing

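The calls of Osgin1, Sqstm1 and Fth1 against both spleen groups held under every alternative run, and Gclm and Prdx1 were called under none. Nfe2l2 and Txnrd1 changed as given with their values. Of 22 alternatives the number of higher members against tumour-bearing spleens ran from 4 to 5. Upper-quartile scaling brought the all-gene median of the tumour contrasts to −0.10 and −0.08 on the log2 scale, from 0.001 and 0.02. Against tumour-bearing spleens it gave 1091 higher and 1530 lower genes in place of 1338 and 1115. Against healthy spleens it gave 1154 and 1569 in place of 1399 and 1183. The number of lower genes of the smaller pathway lists also moved, by over 1.5 times in up to 13 of 22 alternatives (iron genes against healthy spleens, 0 to 2). For the Nrf2 targets, at an adjusted p under 0.01, 5 targets were higher and 2 lower against tumour-bearing spleens, and 0 higher between the spleens. Against spleen replicates 1 and 2 alone 2 targets were lower, and against healthy replicate 1 alone 1 was lower. With the spleen split as a block 4 targets were higher and 1 lower between the spleens. Leaving out each library gave 5 to 8 higher and 3 to 5 lower targets against tumour-bearing spleens, and 0 to 1 higher between the spleens. Against healthy replicate 1 alone, Gstp1 changed sign to 0.26 (adjusted p 0.799) and Ucp2 to 0.00523; the cause was not tested. The prior count of 2, chosen after seeing the data, brought Osgin1 to 5.91 and 6.18 on the log2 scale. With few spleen counts depth limits the size of the Osgin1 rise.

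Same-numbered libraries did not deviate together in every pair. The correlation of deviations across genes ran from −0.05 to 0.29 for tumour and tumour-bearing spleens. It ran from −0.19 to 0.04 for tumour and healthy spleens and from −0.35 to 0.50 for the spleens. In these comparisons 4 of 8, 0 of 6 and 1 of 6 libraries correlated best with their own number. Whether the numbers pair the samples cannot be decided from these values, because the spleen split also enters the deviations. With the replicate number as a block, 5 members were higher against each spleen group, Nfe2l2 being the added one against healthy spleens, and 8 Nrf2 targets were higher in each; no member was called between the spleens.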
